A study of Mus musculus with 21 samples.

Results

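The 38 genes described here encode proteins of the nucleolus and of ribosome assembly. They were chosen by symbol, with earlier results of these data known. All 38 were found in each of 3 expression tables, of 14178 (PRC2 inhibitors), 15623 (Kdm5b knockdown) and 13949 genes (Kdm5b overexpression). The tables hold RNA sequencing of 21 libraries in 8 groups of established mouse acute myeloid leukaemia lines, grown in medium with stem cell factor (mSCF) and transformed by a flag-tagged fusion oncogene, either NUP98-NSD1 or MLL-AF9. NUP98-NSD1 cells received DMSO, UNC1999 or JQEZ5 for 4 days, in 3 libraries each. The inhibitors were given at 3 uM. UNC1999 and JQEZ5 inhibit the enzyme of PRC2, a complex that methylates histone H3 at silenced genes. NUP98-NSD1 cells were also infected with pLKO.1-puro lentivirus that carried no insert (shEV, 3 libraries) or an shRNA against Kdm5b (shKdm5b, 3 libraries), and were selected with puromycin. The labels name a single shRNA group, without its sequence, and the control carries no hairpin. MLL-AF9 cells were infected with MSCV-neo retrovirus that was empty (EV), carried wild-type Kdm5b (Kdm5b_WT) or carried the demethylase-dead mutant Kdm5b_H499A, with 2 libraries each. Kdm5b encodes an enzyme that removes methyl groups from lysine 4 of histone H3.

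Ribosomes are built in the nucleolus. RNA polymerase I copies the ribosomal RNA genes there, small nucleolar ribonucleoproteins (snoRNPs) guide the methylation and pseudouridylation of the transcript, and large processing complexes cut and fold it into the small and the large subunit. The genes for these proteins are transcribed by RNA polymerase II, many are textbook targets of the transcription factor MYC, and their output is high in growing cells and leukaemic blasts. The 38 genes comprised 4 genes of general nucleolar proteins (Ncl, Npm1, Ddx21, Gnl3) and 6 of RNA polymerase I and its cofactors. A further 8 were of the snoRNPs, 7 of small subunit assembly and 12 of large subunit assembly. The last was Cad, the enzyme of the opening steps of pyrimidine synthesis.

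Read totals recovered from the tables were 12812646 to 18928764 for the libraries with inhibitors or DMSO, 21273211 to 34813867 for the knockdown set and 17341257 to 19973218 for the MLL-AF9 set. Nothing in the labels tells whether libraries came from separate cultures, so p-values may measure technical spread only, and they name 2 library kits without saying which made which library. Kdm5b stood at 61.6, 94.8 and 67.0 normalised counts in shEV and at 34.1, 28.8 and 23.2 in shKdm5b, below the level needed for a test. In MLL-AF9 cells Kdm5b was at 114 and 128 in EV, at 309 and 279 in Kdm5b_H499A and at 1410 and 1416 in Kdm5b_WT, so the mutant was present at a lower RNA level than the wild type. In the inhibitor experiment Kdm5b rose from 607 ± 14.9 (SD, n = 3) in DMSO to 886 ± 14.7 in UNC1999 (limma adjusted p = 1.65e-07). It was at 658 ± 8.64 in JQEZ5 (limma adjusted p = 0.112). Of 8 markers of myeloid blasts, 7 had values in the inhibitor table and 8 in each of the others, whereas no B cell, T cell or NK cell marker had a value in any table. Of 6 stromal and endothelial markers, 2, 1 and 2 had values in the inhibitor, knockdown and overexpression tables, with up to 5860 reads. They were Pecam1 in every table and Pdgfrb in the inhibitor and overexpression tables. In the knockdown table Pecam1 alone had up to 5336 reads. The collagen genes Col1a1, Col1a2 and Col3a1 and Cdh5 had no value in any table. Of 8 erythroid markers, 1, 1 and 2 had values, with at most 27 reads.

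The most abundant transcript per length was Npm1, the histone chaperone and nucleolar scaffold nucleophosmin that is often mutated in human acute myeloid leukaemia. Levels are normalised read counts, and for comparisons between genes they were divided by the coding length in kilobases. Npm1 had 19136 ± 97.1 normalised counts per kilobase in DMSO, 57799 ± 1776 in shEV (both SD, n = 3) and 56909 ± 579 in EV (SD, n = 2). Ncl, nucleolin, the RNA-binding protein of the nucleolar transcripts, came second in all 3 control groups, at 10083 ± 111, 38283 ± 821 and 22433 ± 81.4 per kilobase. Nhp2, a small core protein of the pseudouridylating snoRNPs, came next, at 2322 ± 97.6, 11605 ± 106 and 7099 ± 247. The lowest in DMSO and EV was Utp20, a large scaffold of small subunit assembly, at 70.4 ± 4.52 (SD, n = 3) and 303 ± 0.035 (SD, n = 2) per kilobase, and in shEV it was Polr1b, the second-largest subunit of RNA polymerase I, at 459.8 ± 8.35, next to Utp20 at 466 ± 17.8. The last 2 values differ by less than their spread. The 3 tables were normalised separately, so these levels order genes within a table and are not compared between tables. Processed copies of Npm1 exist in the mouse genome, and 13 of the 38 genes share exonic sequence with a coding gene on the other strand (for example Nop56 with Idh3b). The strand setting of the counting is not given in the sources used here, so reads of such pairs cannot be told apart.

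The sequences upstream of 6 of the 38 genes, chosen after their values were seen, are shown for comparison. Promoters of RefSeq on GRCm38.p6, each 250 bases before and 50 after the start, matched 32 of the 38 genes. The stretches are the 250 bases before the start of Ncl (chr1:86359456-86359705, minus strand), Mybbp1a (chr11:72441077-72441326, plus strand), Nop2 (chr6:125131633-125131882, plus strand), Cad (chr5:31054530-31054779, plus strand), Nolc1 (chr19:46075597-46075846, plus strand) and Dkc1 (chrX:75095604-75095853, plus strand). They are written 5′ to 3′ in the direction of the gene, with capitals at matches to the GC box GGGCGG, the E-box CACGTG, the ETS-type site CCGGAAG, the TATA box TATAAA and the CCAAT box CCAAT, each searched on both strands.
Ncl: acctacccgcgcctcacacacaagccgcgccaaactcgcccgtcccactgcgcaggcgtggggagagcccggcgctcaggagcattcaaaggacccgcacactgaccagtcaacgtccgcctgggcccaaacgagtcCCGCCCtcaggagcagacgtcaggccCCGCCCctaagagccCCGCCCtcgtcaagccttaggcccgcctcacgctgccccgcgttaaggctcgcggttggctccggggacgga
Mybbp1a: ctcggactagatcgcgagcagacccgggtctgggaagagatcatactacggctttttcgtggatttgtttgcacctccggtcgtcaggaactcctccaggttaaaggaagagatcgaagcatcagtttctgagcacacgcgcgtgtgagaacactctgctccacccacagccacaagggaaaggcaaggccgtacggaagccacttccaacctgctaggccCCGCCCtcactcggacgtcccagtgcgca
Nop2: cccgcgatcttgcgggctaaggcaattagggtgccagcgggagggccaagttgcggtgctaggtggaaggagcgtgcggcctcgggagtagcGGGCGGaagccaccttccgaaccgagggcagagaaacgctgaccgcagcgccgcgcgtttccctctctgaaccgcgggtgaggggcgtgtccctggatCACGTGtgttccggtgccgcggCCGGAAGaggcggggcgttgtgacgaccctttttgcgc
Cad: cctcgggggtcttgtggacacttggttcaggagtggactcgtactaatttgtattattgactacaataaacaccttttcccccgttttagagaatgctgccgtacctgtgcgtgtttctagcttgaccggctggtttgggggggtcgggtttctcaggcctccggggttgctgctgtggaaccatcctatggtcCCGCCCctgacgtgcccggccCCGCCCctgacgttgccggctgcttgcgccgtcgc
Nolc1: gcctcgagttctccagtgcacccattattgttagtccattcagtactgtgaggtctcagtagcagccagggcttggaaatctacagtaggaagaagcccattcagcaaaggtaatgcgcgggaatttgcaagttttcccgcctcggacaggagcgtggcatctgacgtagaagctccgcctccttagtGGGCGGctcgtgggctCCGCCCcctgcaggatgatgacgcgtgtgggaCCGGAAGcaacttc
Dkc1: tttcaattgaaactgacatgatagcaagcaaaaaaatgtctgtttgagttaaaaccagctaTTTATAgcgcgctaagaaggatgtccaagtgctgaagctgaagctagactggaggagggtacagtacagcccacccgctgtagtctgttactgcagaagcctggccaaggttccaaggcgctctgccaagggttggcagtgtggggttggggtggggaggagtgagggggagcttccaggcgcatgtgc
The stretches differ: a GC box lay in each but that of Dkc1, a TATA box only in that of Dkc1, the E-box only in that of Nop2, the ETS-type site in those of Nop2 and Nolc1, and a CCAAT box in none of the 6. Their GC content was 69.6%, 57.6%, 67.6%, 58.8%, 56.4% and 52.0% in the order shown. Over the whole 300-base windows the GC box was found in 78.1% of the 32 genes and in 38.2% of 27025 genes with a promoter. The ETS-type site was found in 37.5% against 9.93%, the E-box in 15.6% against 8.09%, the TATA box in 9.38% against 15.7% and the CCAAT box in 25.0% against 41.1%. The median GC content was 58.0% for the 32 genes and 52.67% for all, and GC-rich letters are more frequent in GC-rich windows. Of 100 further ribosome biogenesis genes with a promoter, 67.0% held the GC box, 47.0% the ETS-type site, 20.0% the E-box, 6.0% the TATA box and 42.0% the CCAAT box. A match is a description of the letters and not a bound site.

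The E-box is the sequence that MYC with its partner MAX is known to bind, and 5 of the 32 genes held 1. The 5 windows, with CACGTG in capitals and up to 12 bases on either side, lie in Nop2 (chr6:125131811-125131840), Utp20 (chr10:88826765-88826789, minus strand), Pes1 (chr11:3963965-3963994), Mybbp1a (chr11:72441355-72441376) and Wdr43 (chr17:71616220-71616249).
Nop2: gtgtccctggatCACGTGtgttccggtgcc
Utp20: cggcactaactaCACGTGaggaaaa
Pes1: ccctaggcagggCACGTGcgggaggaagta
Mybbp1a: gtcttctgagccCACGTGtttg
Wdr43: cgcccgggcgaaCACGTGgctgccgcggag
The motif began 60 bases before the RefSeq start in Nop2 and 38, 3, 41 and 18 bases after it in Utp20, Pes1, Mybbp1a and Wdr43. These 5 genes encode an RNA methyltransferase of the large subunit (Nop2), a small subunit scaffold (Utp20), a member of the PeBoW complex of large subunit assembly (Pes1), a nucleolar partner of RNA polymerase I (Mybbp1a) and a small subunit processome protein (Wdr43). Their values are given with those of their roles.

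The 38 genes took a smaller share of all counted reads in UNC1999, shKdm5b and Kdm5b_WT than in the controls of the same experiment. The share was 0.508% ± 0.004 in DMSO (SD, n = 3), 0.534% ± 0.014 in JQEZ5 and 0.405% ± 0.001 in UNC1999. It was 1.10% ± 0.014 in shEV and 0.936% ± 0.023 in shKdm5b, and in MLL-AF9 cells 1.18% ± 0.007 in EV, 1.13% ± 0.001 in Kdm5b_H499A and 0.966% ± 0.001 in Kdm5b_WT (SD, n = 2). No library of UNC1999, shKdm5b or Kdm5b_WT overlapped a library of its control. The same held for Kdm5b_H499A, whose libraries lay below EV, and for JQEZ5, whose libraries lay above DMSO. With 3 libraries a group an exact permutation test cannot go below p = 0.1, and with 2 not below 0.333, so the shares are given without a test. Ncl and Npm1 alone made up 49.4% to 53.2% of these reads in the inhibitor libraries. They made up 39.2% to 41.9% in the knockdown and 39.3% to 44.2% in MLL-AF9 cells. Without those 2 genes the summed normalised counts were 38680 to 38952 in DMSO and 31105 to 32254 in UNC1999. The sums were 189769 to 193735 in shEV and 163042 to 165063 in shKdm5b. In EV they were 122261 to 123584 and in Kdm5b_WT 106978 to 107141. The RNA is from bulk cultures, in which fewer cells of a type and less RNA per cell cannot be told apart.

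**Figure D1:**
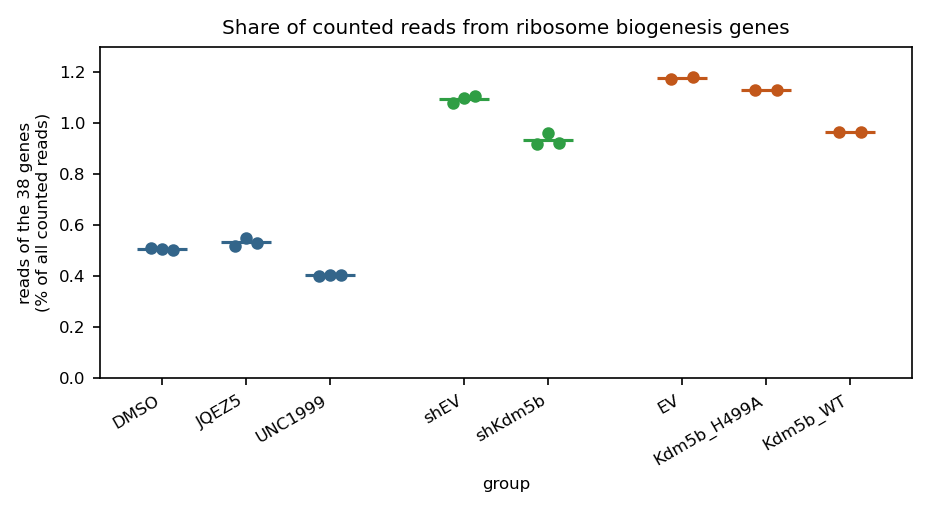
Share of all counted reads (vertical axis, percent, from 0) that came from the 38 genes, in each library (points) with the group mean (line). UNC1999 libraries lie near 0.405%, below DMSO and JQEZ5, and Kdm5b_WT lies below Kdm5b_H499A and EV.

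Most ribosome biogenesis genes were lower in UNC1999. Against DMSO, 34 of the 38 were called lower and 0 higher by limma at an adjusted p under 0.05, where 24% of all 10694 genes tested were called lower and 23.9% higher. Scaling to the total count in place of the authors' normalisation changed the background split to 32.2% lower and 18.5% higher, and the genes lower to 37. The median log2 difference was -0.24 over the 38 genes and -0.01 over all genes. In 37 of 38 every UNC1999 library lay below every DMSO library, which 28.1% of all genes also did. The 4 not called were Noc2l, Polr1c, Rrp1b and Rrs1, with log2 differences of -0.09, -0.08, -0.06 and -0.08.

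All 4 general nucleolar genes were lower in UNC1999. Ncl was at 21649, 21198 and 21312 normalised counts in DMSO and at 17071, 17554 and 16463 in UNC1999. The groups lay apart, with a mean 0.796 times that of DMSO (log2 difference -0.33 ± 0.034 SE, limma adjusted p = 1.15e-06). Ddx21, an RNA helicase that links RNA polymerase I transcription to processing, was at 3318, 3345 and 3262 in DMSO and at 2597, 2565 and 2440.1 in UNC1999 (log2 -0.36 ± 0.035 SE, limma adjusted p = 6.52e-07). Npm1 was at 16861, 16706 and 16722 in DMSO and at 15289, 15362 and 15041 in UNC1999, a smaller fall to 0.909 times (limma adjusted p = 0.00409). For both genes the UNC1999 libraries were all below the DMSO libraries. Gnl3, the nucleolar GTPase nucleostemin, fell to 0.884 times, and that call was lost without DMSO replicate 1 (limma adjusted p = 0.114) or without UNC1999 replicate 2 (limma adjusted p = 0.104).

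Among the groups of several genes, the snoRNP genes had the largest median fall, with 8 of 8 lower at ratios of 0.688 to 0.866. Nolc1, the chaperone that carries snoRNPs to the nucleolus, had the lowest adjusted p of all 38. It was at 2113, 2019 and 2039.5 normalised counts in DMSO and at 1491, 1563 and 1522 in UNC1999 (log2 -0.38 ± 0.034 SE, limma adjusted p = 1.70e-07). Fbl, fibrillarin, the ribose methyltransferase of the box C/D snoRNPs, spread more widely, at 1171, 946 and 1044 in DMSO and at 864, 745 and 806 in UNC1999. The groups still did not overlap (ratio 0.763, log2 -0.31 ± 0.083 SE, limma adjusted p = 0.00551). Gar1 and Dkc1 (dyskerin, the pseudouridine synthase) of the H/ACA snoRNPs stood at 0.688 and 0.732 times DMSO, and Nop56, Nop58, Nhp2 and the U3 snoRNP protein gene Rrp9 between 0.808 and 0.866. The call of Rrp9 was lost when any DMSO library, UNC1999 replicate 2 or UNC1999 replicate 3 was left out (limma adjusted p from 0.0512 to 0.114).

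In the RNA polymerase I group 5 of 6 genes were lower. Mybbp1a was at 3429, 3428 and 3385 normalised counts in DMSO and at 2773, 2733 and 2820.3 in UNC1999, with little spread in either group (log2 -0.28 ± 0.029 SE, limma adjusted p = 9.40e-07). Polr1a, the largest catalytic subunit, was at 1122, 1117 and 1096 in DMSO and at 974, 901 and 1063 in UNC1999. Its groups did not overlap (ratio 0.881, limma adjusted p = 0.0133), but without UNC1999 replicate 2 the call was lost (limma adjusted p = 0.0772). Tcof1, the ribosomal DNA transcription factor treacle, was at 0.791 and Polr1b at 0.740 times DMSO. Polr1e, another polymerase subunit, was at 0.777 times, a call lost without DMSO replicate 2 (limma adjusted p = 0.0629).

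Small subunit genes were lower in 7 of 7 and large subunit genes in 9 of 12. Noc4l, of the small subunit processome, was lowest of the first set at 0.727 times DMSO. Utp20 was at 0.861 times, and lost its call without DMSO replicate 1, UNC1999 replicate 1 or UNC1999 replicate 2 (limma adjusted p 0.117, 0.0512 and 0.0879). Bop1, which forms the PeBoW complex with Pes1 and Wdr12, was at 969, 1026 and 980.3 normalised counts in DMSO and at 778, 752 and 856 in UNC1999. Its groups lay apart (ratio 0.802, log2 -0.26 ± 0.046 SE, limma adjusted p = 0.000252). Nop2 was at 0.714 times (log2 -0.41 ± 0.046 SE, limma adjusted p = 2.48e-06), and Wdr74, a factor of large subunit maturation, lost its call without DMSO replicate 2 (limma adjusted p = 0.0568). Cad was at 1655, 1688 and 1683 in DMSO and at 1359, 1222 and 1348 in UNC1999, again without overlap (ratio 0.782, limma adjusted p = 1.22e-05).

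JQEZ5 libraries did not show this fall. Against the same DMSO libraries, 7 of the 38 genes were called higher and 0 lower by limma, where 13.1% of all genes were called higher and 10.5% lower (10.2% higher and 13.7% lower when scaled to the total count, with 4 of the 38 higher and 1, Cad, lower). The median log2 difference was 0.05, against 0.01 over all genes, and 11 genes were higher and 1 lower at an unadjusted limma p under 0.05 (18.6% and 15.8% of all genes). The 7 were Gnl3, Npm1, Ncl, Wdr43, Nop58, Noc2l and Nhp2, at 1.10 to 1.21 times DMSO. The count fell to 3 without the mean trend in the variance, to 3 without DMSO replicate 2 and to 4 without JQEZ5 replicate 3. Of all genes 11.8%, 10.2% and 9.79% were then higher.

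Gnl3 rose most, from 722, 674 and 643 normalised counts in DMSO to 809, 825 and 825 in JQEZ5. The groups did not overlap (ratio 1.21, log2 0.21 ± 0.045 SE, limma adjusted p = 0.00257). Every JQEZ5 library lay above every DMSO library in 2364 of all 10694 genes tested. Npm1 was at 18005, 20266 and 18774 in JQEZ5, above each DMSO library (ratio 1.13, limma adjusted p = 0.00133). Ncl was at 22590.2, 24785 and 22957 in JQEZ5, likewise above DMSO (ratio 1.10, limma adjusted p = 0.0111). Both calls were lost under 1 alternative each, Npm1 under quantile normalisation (limma adjusted p = 0.110) and Ncl without the variance trend (limma adjusted p = 0.0538). Wdr43 was at 1568, 1679 and 1592 against 1498, 1367 and 1420.0 (ratio 1.13, limma adjusted p = 0.00832), and without DMSO replicate 2 its limma adjusted p was 0.0514. The calls of Nhp2, Noc2l and Nop58 were also lost when 1 of several libraries was left out. Nhp2 lost its call without DMSO replicates 1 or 2 or JQEZ5 replicates 1 or 3 (limma adjusted p 0.0812 to 0.151). Noc2l, a nucleolar large subunit factor, lost it without DMSO replicates 1 or 2 or JQEZ5 replicate 3 (0.0771 to 0.139, limma adjusted p). Nop58, a core protein of the box C/D snoRNPs, lost it without DMSO replicates 2 or 3 or JQEZ5 replicates 2 or 3 (0.0582 to 0.116, limma adjusted p).

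The other leading genes were not called in JQEZ5. Fbl was at 1241, 884 and 1009 normalised counts, a range that spans the DMSO libraries (log2 difference -0.02, interval -0.19 to 0.16, limma adjusted p = 0.916). Polr1a was at 1085, 994 and 1047 (log2 -0.08, interval -0.18 to 0.02, limma adjusted p = 0.262), below each DMSO library, and Bop1 at 990.3, 893 and 932 (log2 -0.07, interval -0.16 to 0.03, limma adjusted p = 0.345). Cad was at 1533, 1487 and 1607, below each DMSO library (ratio 0.921, limma adjusted p = 0.0740). It passed the threshold under 4 alternatives, with limma adjusted p from 0.0279 to 0.0455. Every JQEZ5 library lay below every DMSO library in 2085 of all 10694 genes tested.

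The 2 inhibitors at the same dose and time differed in these genes. Between UNC1999 and JQEZ5, 37 of 38 were lower in UNC1999 and 0 higher by limma, against 17.7% of all genes lower and 18.7% higher (21.5% and 15.2% when scaled to the total count), with a median log2 difference of -0.25 over the 38 and 0.00 over all genes. Ncl stood at 0.726 times its JQEZ5 level (log2 -0.46 ± 0.034 SE, limma adjusted p = 9.01e-08) and Nolc1 at 0.722 times (log2 -0.42 ± 0.034 SE, limma adjusted p = 2.15e-07). Mybbp1a was at 0.781 times, Nop58 at 0.736, Npm1 at 0.801, Bop1 at 0.847 and Cad at 0.849. Each of these 7 genes had every UNC1999 library below every JQEZ5 library, as had 2364 of all 10694 genes tested. Fbl was at 0.770 times (limma adjusted p = 0.0109), a call lost without JQEZ5 replicate 1 (limma adjusted p = 0.0563) and with robust variance estimates (limma adjusted p = 0.0723). Polr1a was not called (log2 -0.08, interval -0.18 to 0.02, limma adjusted p = 0.229), although without UNC1999 replicate 3 it was lower (limma adjusted p = 0.0312).

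**Figure D2:**
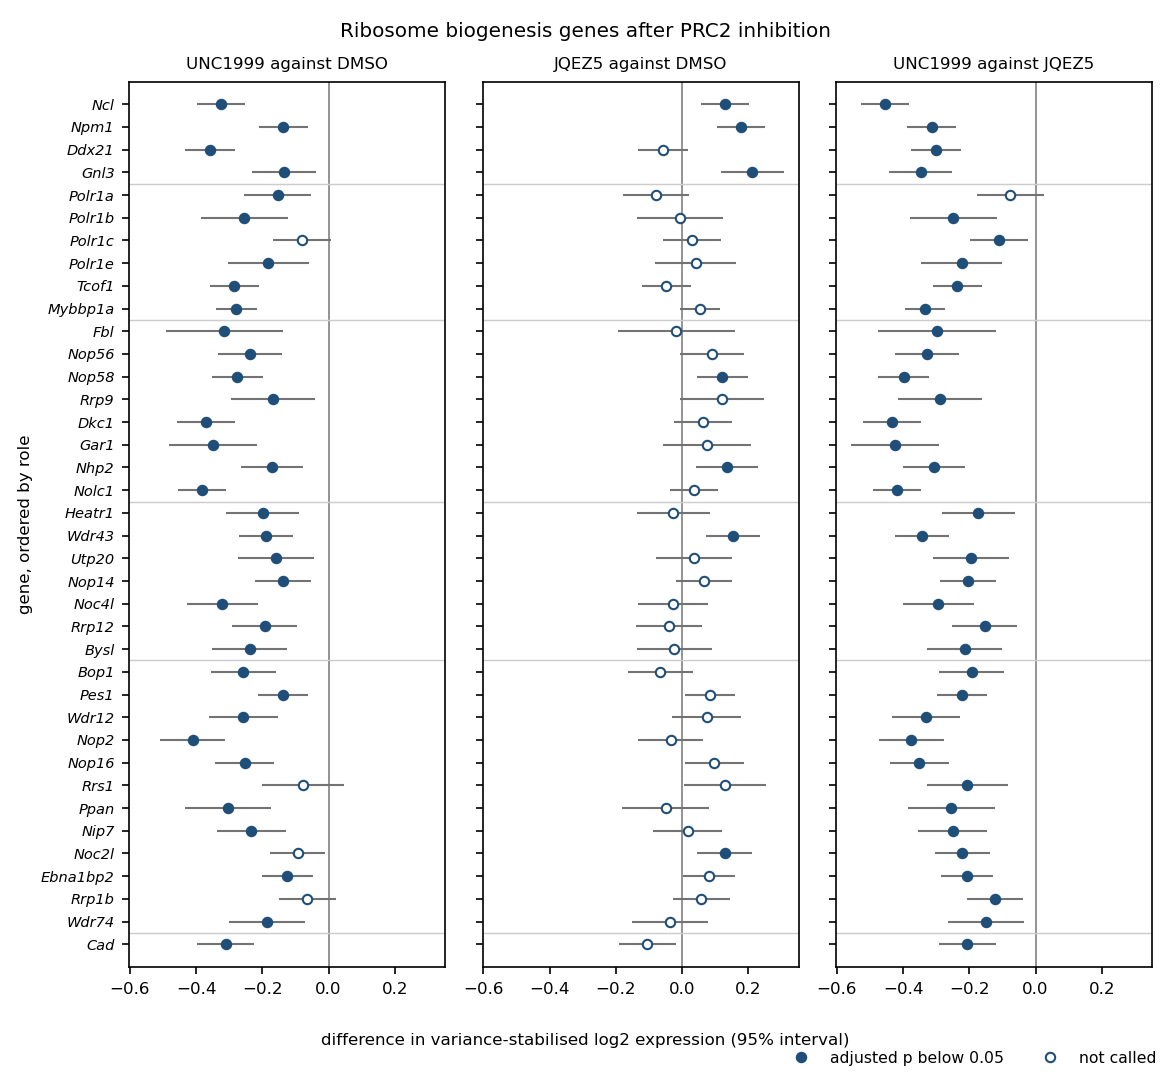
Difference in variance-stabilised log2 expression (horizontal axis, points with 95% intervals) for each of the 38 genes in the 3 comparisons of the inhibitor experiment. Filled points passed the limma adjusted p threshold of 0.05; 34 lie below 0 for UNC1999 against DMSO, 7 above 0 for JQEZ5 against DMSO and 37 below 0 for UNC1999 against JQEZ5.

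Proliferation and macrophage genes moved in the same libraries. In UNC1999, 20 of 20 S phase and 20 of 20 G2 and M phase genes were called lower than in DMSO by limma, with median ratios of 0.684 and 0.691, and in JQEZ5 11 and 13 of 20 were, with 0.895 and 0.875. All 9 tested macrophage markers were higher in UNC1999, and 8 were higher and 1 lower in JQEZ5. Of all genes 24% were lower and 23.9% higher in UNC1999, and 10.5% and 13.1% in JQEZ5. The summed macrophage markers ran from 90810.4 to 92426 normalised counts in DMSO, from 184522 to 186582 in JQEZ5 and from 270281 to 283738 in UNC1999, with none of the 10 at 0. Myc did not follow the UNC1999 fall, at 2857, 3068 and 2921 in DMSO and 2958, 2982 and 2817 in UNC1999 (ratio 0.990, log2 -0.01, interval -0.09 to 0.06, limma adjusted p = 0.778). In JQEZ5 Myc was at 3494, 3328 and 3478, above each DMSO library (ratio 1.16, limma adjusted p = 0.000435). The part of these lists in the ribosome biogenesis values was not tested.

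Knockdown of Kdm5b was accompanied by lower levels of 26 of the 38 genes, with 0 called higher by limma, where 17.4% of all 10810 genes were lower and 15% higher. The median log2 difference was -0.19, against -0.01 over all genes. In 31 of the 38 all shKdm5b libraries lay below all shEV libraries, as in 26.5% of all genes. The count depended on single libraries of either group: without shEV replicate 1, 2 or 3 it was 16, 14 and 14. The share of all genes called lower was then 9.4%, 9.71% and 9.88%, and the median log2 difference of the 38 was -0.20, -0.19 and -0.19. Without shKdm5b replicate 2 or 3 the count was 19 each time, where 14.8% of all genes were lower, with medians of -0.17 and -0.18. All genes called in these fits were among the 26. Without shKdm5b replicate 1 the count was 33 lower and 1 higher, where 27.7% of all genes were lower and 23.7% higher.

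Cad fell most. It was at 8602, 8885 and 8403 normalised counts in shEV and at 5402, 5151 and 5046 in shKdm5b. The groups were far apart (ratio 0.602, log2 -0.70 ± 0.044 SE, limma adjusted p = 1.44e-05). RNA polymerase I genes were lower in 6 of 6, led by Polr1a at 5349.8, 5651 and 5528 in shEV and at 3649, 4006 and 4060.0 in shKdm5b (ratio 0.709, log2 -0.46 ± 0.049 SE, limma adjusted p = 0.000240). Mybbp1a was at 16324, 16691 and 16389 in shEV and at 12920.1, 12873 and 12834 in shKdm5b (ratio 0.782, limma adjusted p = 0.000320). No shKdm5b library reached the shEV range for either gene. The other 4, Polr1b, Polr1c, Polr1e and Tcof1, stood at 0.791 to 0.858 times shEV. The call of Tcof1 was lost without shEV replicate 2 (limma adjusted p = 0.0539), and that of Polr1c, a subunit shared with RNA polymerase III, when any library but shKdm5b replicate 1 was left out (limma adjusted p 0.0682 to 0.0897).

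Small subunit genes were lower in 7 of 7, at ratios of 0.669 to 0.905. Without shEV replicate 3 the count was 4, since Bysl, Nop14 and Wdr43 lost their calls (limma adjusted p 0.0900, 0.122 and 0.0563), and without shEV replicate 1 or 2 it was 5. Utp20 was at 3866, 4066 and 3774 normalised counts in shEV and at 2349, 2789 and 2691 in shKdm5b. The groups lay far apart (ratio 0.669, log2 -0.53 ± 0.061 SE, limma adjusted p = 0.000364). Rrp12, an export factor of the small subunit precursor, and Heatr1, of the processome, were at 0.744 and 0.772 times shEV. Among large subunit genes 4 of 12 were lower, namely Bop1, Nop2, Pes1 and Rrs1. The call of Pes1 was lost without any 1 shEV library or shKdm5b replicate 2 (limma adjusted p 0.0716 to 0.155) and that of Rrs1 without shEV replicate 2 or 3 (0.0969 and 0.0778). Bop1 was at 4892, 4777 and 4721 in shEV and at 4005, 3334 and 3422 in shKdm5b, without overlap (ratio 0.748, log2 -0.39 ± 0.063 SE, limma adjusted p = 0.00203). The other 8 had log2 differences from -0.18 (Nop16) to -0.01 (Ebna1bp2).

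The general nucleolar genes did not move alike. Npm1 was at 49701, 49767 and 52428 normalised counts in shEV and at 39152, 41238 and 35385 in shKdm5b, with the groups apart (ratio 0.762, log2 -0.39 ± 0.064 SE, limma adjusted p = 0.00211). Ncl was at 79528, 81062 and 83004 in shEV and at 68281, 76493 and 69958 in shKdm5b, closer to the controls (ratio 0.882, limma adjusted p = 0.0418). Gnl3 was at 3928, 4239.7 and 4169 in shEV and at 4344, 4658 and 4572 in shKdm5b, the only 1 of the 38 with every shKdm5b library above every shEV library, as in 22.5% of all genes (log2 0.13 ± 0.046 SE, limma adjusted p = 0.0605). Without shKdm5b replicate 1 (limma adjusted p = 0.00688), with median centring (0.0489) and with quantile normalisation (0.03) Gnl3 was called higher (limma adjusted p in brackets). The snoRNP genes were lower in 5 of 8. Nolc1 was at 0.833 times, and Fbl at 2604, 2722 and 2612 in shEV and 2490.0, 2305 and 2324 in shKdm5b (ratio 0.897, limma adjusted p = 0.0380). The calls of Fbl, Nop56, Nhp2 and Rrp9 were all lost when any library but shKdm5b replicate 1 was left out, so that 1 of 8, Nolc1, was then lower (limma adjusted p of Fbl from 0.0850 to 0.163, of Nop56 from 0.0758 to 0.174). That of Ncl was lost without shEV replicate 1, 2 or 3 or without shKdm5b replicate 3 (limma adjusted p from 0.0838 to 0.166).

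Cell cycle genes moved less in the knockdown, with 1 of 20 S phase genes higher and 7 lower and 6 of 20 G2 and M phase genes higher and 0 lower by limma. Of 9 macrophage markers 2 were higher and 7 lower, and their sum ran from 47347 to 48318 normalised counts in shEV and from 37427 to 43304 in shKdm5b. Of all genes 15% were higher and 17.4% lower. Myc was at 8179, 8383 and 8150.1 in shEV and at 8613, 7959 and 8471 in shKdm5b, with overlapping groups (ratio 1.01, log2 0.02, interval -0.08 to 0.12, limma adjusted p = 0.785). The part of these genes in the knockdown values was not tested.

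In MLL-AF9 cells with wild-type Kdm5b, 29 of the 38 genes were lower and 0 higher than in EV by limma. Many other genes differed too, as 32.4% of all 9458 genes were called lower and 29.8% higher (28.1% and 33.1% when scaled to the total count, with 27 of the 38 lower). The median log2 difference was -0.15, against -0.01 over all genes. The pair of most abundant genes fell furthest. Npm1 was at 49493 and 50210.7 normalised counts in EV and at 35061 and 34781 in Kdm5b_WT, far below the controls (ratio 0.701, log2 -0.51 ± 0.022 SE, limma adjusted p = 8.44e-17). Ncl was at 47459 and 47703 in EV and at 35623 and 34510 in Kdm5b_WT (ratio 0.737, log2 -0.43 ± 0.022 SE, limma adjusted p = 3.48e-15).

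The snoRNP genes were lower in 7 of 8. Dkc1 was at 5031 and 5144 normalised counts in EV and at 3957 and 3874 in Kdm5b_WT (ratio 0.770, log2 -0.34 ± 0.025 SE, limma adjusted p = 7.90e-12), and Fbl at 6083 and 5896 in EV and 4919 and 5087 in Kdm5b_WT (ratio 0.835, limma adjusted p = 9.43e-09). Both genes were lower in each Kdm5b_WT library than in either EV library, as were 3908 of all 9458 genes tested. Of the RNA polymerase I genes 4 of 6 were lower, led by Mybbp1a at 12936 and 12895 in EV and 10359 and 10478 in Kdm5b_WT (ratio 0.807, limma adjusted p = 1.26e-11). Polr1a was at 2626 and 2769.6 in EV and at 2664 and 2517 in Kdm5b_WT, with overlapping groups (log2 -0.05, interval -0.11 to 0.01, limma adjusted p = 0.159). Without Kdm5b_WT replicate 1 it was called lower (limma adjusted p = 0.0216).

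Small subunit genes were lower in 4 of 7 and large subunit genes in 9 of 12. Utp20, which had fallen most among processing genes in the knockdown, was at 2532 and 2532 normalised counts in EV and 2498 and 2467 in Kdm5b_WT (log2 -0.02, interval -0.08 to 0.03, limma adjusted p = 0.468). Bop1 was at 2779 and 2754 in EV and at 2538 and 2531 in Kdm5b_WT, a small fall without overlap (ratio 0.916, log2 -0.11 ± 0.027 SE, limma adjusted p = 0.00156). Nop2 was at 2471 and 2566 against 2516 and 2595, so the groups overlapped (log2 0.02, interval -0.04 to 0.08, limma adjusted p = 0.605). Cad was at 6940 and 6983 in EV and at 5879 and 5489 in Kdm5b_WT (ratio 0.817, limma adjusted p = 1.98e-09). Leaving out 1 library ended calls for Ddx21, Nop14, Ppan, Rrp12, Wdr12 and Wdr74, whose log2 differences ran from -0.10 (Wdr12) to -0.08 (Ppan). Ddx21 and Wdr12 lost theirs without EV replicate 2 (limma adjusted p 0.0565 and 0.195) and Rrp12, Wdr74 and Nop14 without EV replicate 1 (0.179, 0.0886 and 0.128) or Kdm5b_WT replicate 1 (0.0572, 0.0708 and 0.109). Ppan, a large subunit factor, lost its call without EV replicate 2 (0.131, limma adjusted p) or Kdm5b_WT replicate 1 (0.0637).

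The demethylase-dead Kdm5b_H499A gave a mixed pattern against the same EV libraries. By limma 4 genes were higher and 13 lower, where 22.7% of all genes were higher and 26.9% lower, and the median log2 difference was -0.03 against -0.01 over all genes. The 4 higher genes were Bop1, Nop2 and Ebna1bp2, all of large subunit assembly, and Rrp9. Bop1 was at 3329.8 and 3192 normalised counts in Kdm5b_H499A, above EV at 2779 and 2754 (ratio 1.18, log2 0.20 ± 0.027 SE, limma adjusted p = 7.25e-07). Nop2 was at 2793 and 2848, also above EV (ratio 1.12, limma adjusted p = 0.000209). Both Kdm5b_H499A libraries lay above both EV libraries in 3227 of all 9458 genes tested. Ebna1bp2 stood at 1.09 times EV, a call lost without EV replicate 1 (limma adjusted p = 0.105) or Kdm5b_H499A replicate 1 (0.0692). Rrp9 stood at 1.10 times EV, a call lost without EV replicate 1, Kdm5b_H499A replicate 1 or Kdm5b_H499A replicate 2 (limma adjusted p 0.103, 0.0985 and 0.0719).

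The genes lower in Kdm5b_H499A were led by Dkc1, Cad and Fbl. Dkc1 was at 4321 and 4305 normalised counts (ratio 0.848, log2 -0.21 ± 0.025 SE, limma adjusted p = 6.45e-08). Cad was at 5952 and 5939 (ratio 0.854, limma adjusted p = 2.50e-07) and Fbl at 5242 and 5330.3 (ratio 0.882, limma adjusted p = 5.48e-06). All 3 lay below both EV libraries, as did Nop58 at 6102 and 6187 (ratio 0.899, limma adjusted p = 7.34e-05). So did 3865 of all 9458 genes tested. Npm1 was at 46738 and 46052, a small fall from EV (ratio 0.931, limma adjusted p = 0.000309), and Ncl at 45173 and 45430.0 (ratio 0.952, limma adjusted p = 0.0108). The call of Ncl was lost without EV replicate 2, Kdm5b_H499A replicate 1 or Kdm5b_H499A replicate 2 (limma adjusted p 0.0759, 0.106 and 0.0688). Those of Gar1 and Gnl3 were lost as well, Gar1 without any 1 of the 4 libraries (0.0816 to 0.149, limma adjusted p) and Gnl3 without EV replicate 2 or either Kdm5b_H499A library (0.0926 to 0.644). Polr1a was at 2677 and 2611, inside the EV range for 1 library (log2 -0.02, interval -0.09 to 0.04, limma adjusted p = 0.527). None of the 7 small subunit genes was called, with log2 differences from -0.03 to 0.04.

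Set against each other, Kdm5b_WT was lower than Kdm5b_H499A in 29 of the 38 genes and higher in 0 by limma, where 26.3% of all genes were lower and 28.2% higher. The median log2 difference was -0.11 over the 38 genes and 0.01 over all. Npm1 was at 0.753 times (log2 -0.40 ± 0.022 SE, limma adjusted p = 1.94e-14), Ncl at 0.774 times (log2 -0.36 ± 0.022 SE, limma adjusted p = 2.77e-13) and Bop1 at 0.777 times its Kdm5b_H499A level (log2 -0.31 ± 0.027 SE, limma adjusted p = 4.50e-10). Mybbp1a was at 0.838 times. For these 4 genes both Kdm5b_WT libraries were below both Kdm5b_H499A libraries, as in 3424 of all 9458 genes tested. Cad was at 0.956 times (log2 -0.06, interval -0.11 to -0.01, limma adjusted p = 0.0587), and was called lower without Kdm5b_WT replicate 1 (limma adjusted p = 0.000445). Fbl was at 0.946 times (limma adjusted p = 0.0189), a call lost without Kdm5b_H499A replicate 1, Kdm5b_H499A replicate 2 or Kdm5b_WT replicate 1 (0.0513, 0.151 and 0.123). Polr1a did not pass (log2 -0.02, interval -0.09 to 0.04, limma adjusted p = 0.505). The mutant's Kdm5b RNA was lower than that of the wild type, so the effect of the mutation and of the amount cannot be told apart.

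**Figure D3:**
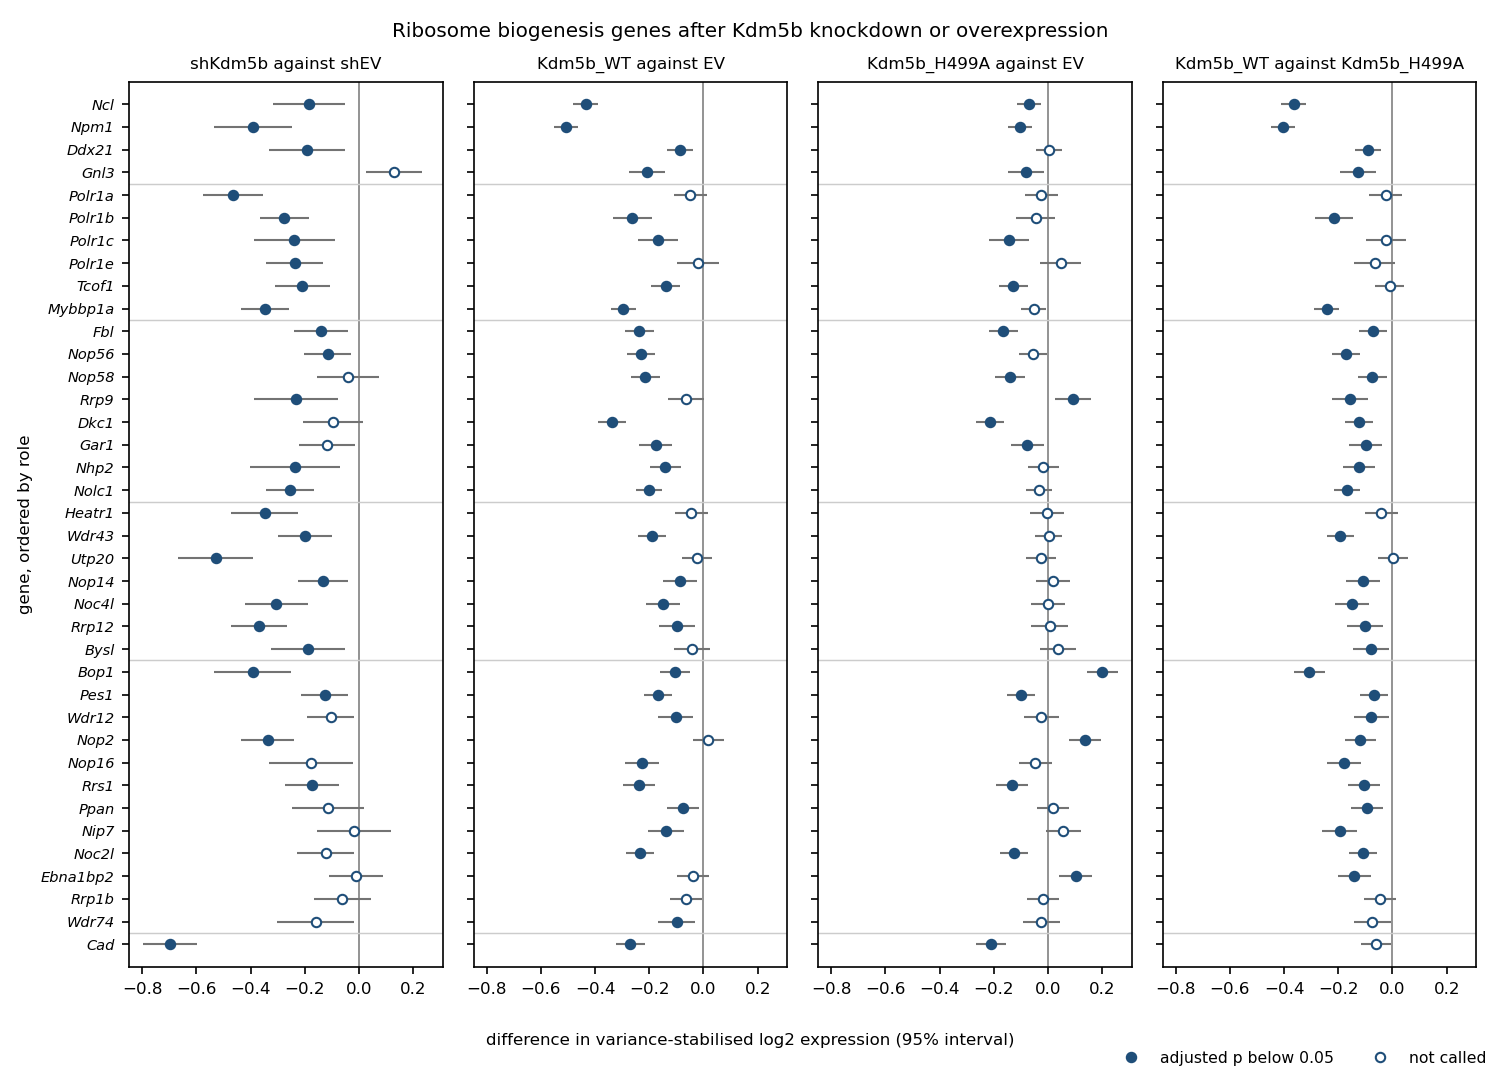
Difference in variance-stabilised log2 expression (horizontal axis, points with 95% intervals) for each gene in shKdm5b against shEV and in the 3 comparisons among EV, Kdm5b_H499A and Kdm5b_WT. Filled points passed the limma adjusted p threshold of 0.05; Cad lies furthest left in the knockdown, Npm1 and Ncl in Kdm5b_WT, and Bop1 lies above 0 for Kdm5b_H499A only.

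In the MLL-AF9 experiment 19 of 20 S phase genes were lower in Kdm5b_WT and 13 in Kdm5b_H499A than in EV by limma. Of all genes 32.4% and 26.9% were lower, and 29.8% and 22.7% higher. Of 20 G2 and M phase genes 2 were higher and 9 lower in Kdm5b_WT (median log2 -0.05), and 4 were higher and 5 lower in Kdm5b_H499A (median log2 -0.02). The 9 macrophage markers with values summed to between 15161 and 15951 normalised counts in EV, 29129 and 29184 in Kdm5b_H499A, and 47048 and 49247 in Kdm5b_WT, with none at 0, and 6 of 7 tested were higher in each, with 1 lower in Kdm5b_WT. Myc was at 3745 and 3658 in EV, at 3053 and 3123 in Kdm5b_H499A (ratio 0.834, limma adjusted p = 7.03e-08) and at 3243 and 3339 in Kdm5b_WT (ratio 0.889, limma adjusted p = 3.15e-05). Myc was thus lowest in the mutant, whereas most of the 38 genes were lowest in the wild type. The part of these genes in the differences was not tested.

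The 3 experiments have separate controls, and 17 of the 38 genes were lower in UNC1999, in shKdm5b and in Kdm5b_WT, each against its own control, as were 3.16% of the 9031 genes tested in all 3. They were Ncl, Npm1 and Ddx21; Polr1b, Tcof1 and Mybbp1a; Fbl, Nop56, Nhp2 and Nolc1; Wdr43, Nop14, Noc4l and Rrp12; Bop1 and Pes1; and Cad. The count depended on the knockdown experiment: without replicate 1, 2 or 3 of shEV it was 10, 9 and 9, and without shKdm5b replicate 2 or 3 it was 13. Leaving out any other library left 15 to 17. Rrp1b, a nucleolar large subunit factor, was the only 1 of the 38 lower in none of these, against 45.2% of all genes. Of the 34 genes lower in UNC1999, 24 (70.6%) were also lower in shKdm5b, which is 92.3% of the 26 lower there. Of the same 34, 26 (76.5%) were lower in Kdm5b_WT, 89.7% of the 29 lower there. Of all genes tested in both, 5.84% of 10190 and 12.4% of 9135 were lower in both. With 34 of the 38 lower in UNC1999, most genes of any list drawn from the 38 would overlap. These percentages therefore cannot tell whether the lists are related. The sizes did not follow each other gene by gene. Over the 38 genes the log2 differences of UNC1999 and shKdm5b had a Pearson r of 0.13, those of UNC1999 and Kdm5b_WT 0.12, and those of shKdm5b and Kdm5b_WT -0.01, given as a description over genes that are not independent.

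**Figure D4:**
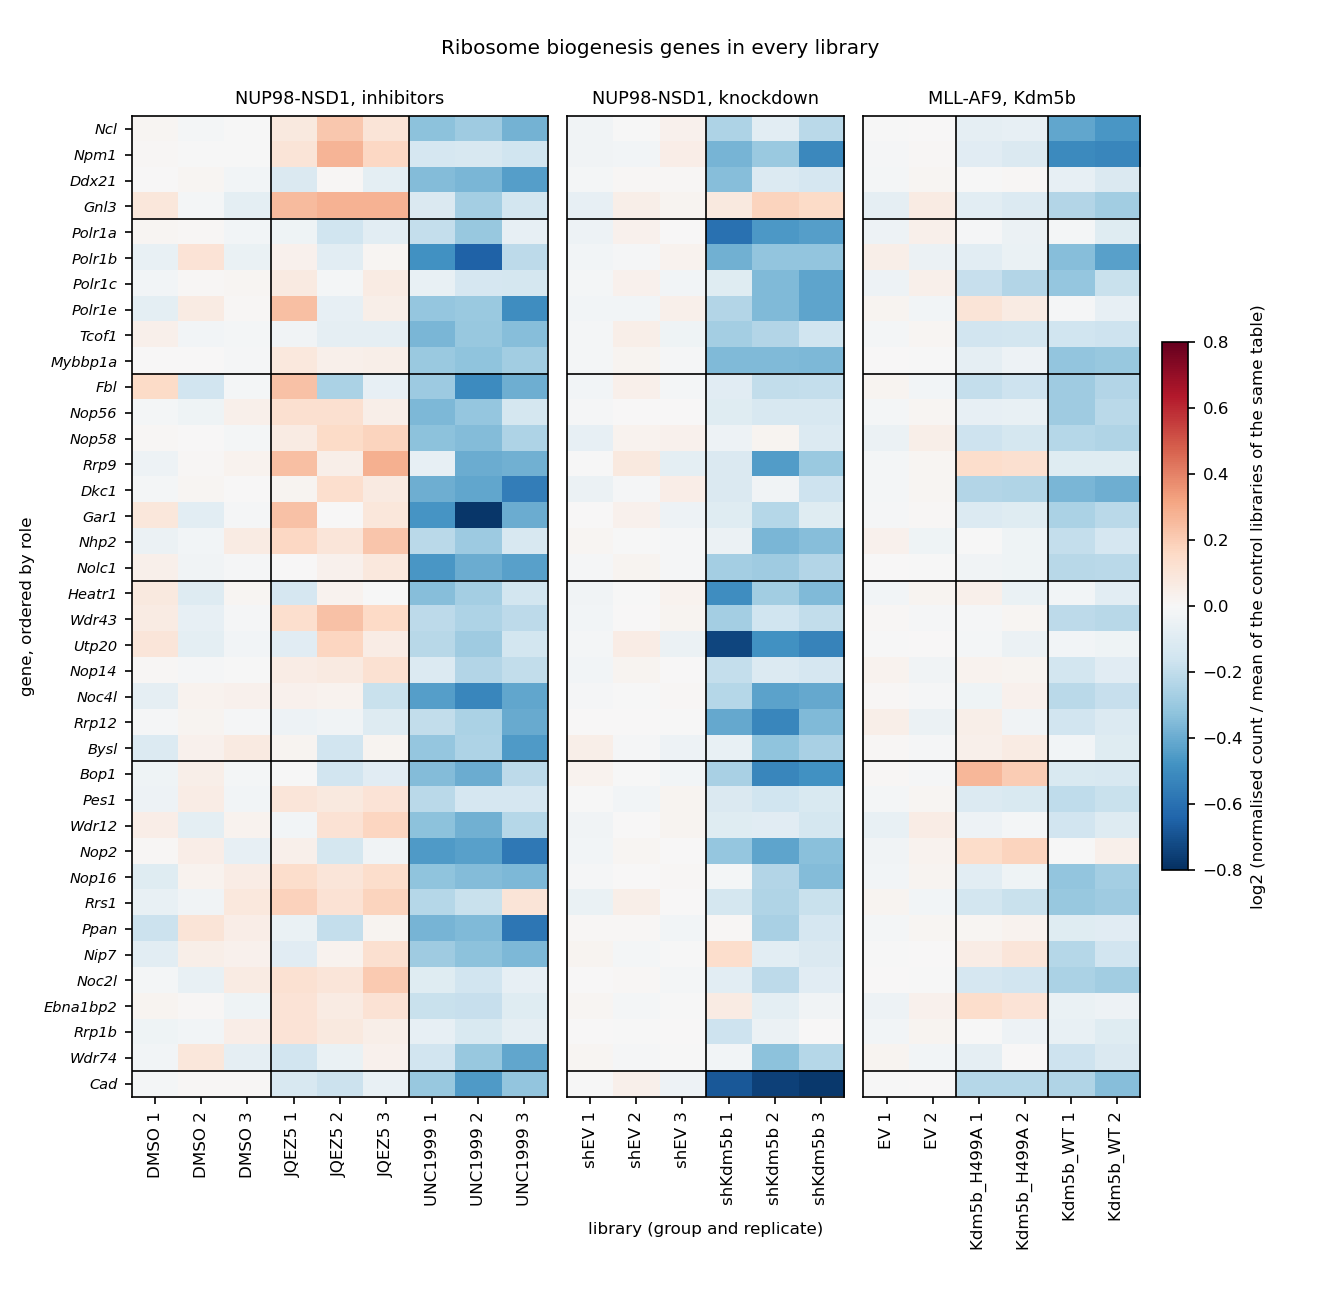
Level of each of the 38 genes (rows, ordered by role, black lines between roles) in each of the 21 libraries (columns), as log2 of the normalised count over the mean of the control libraries of the same experiment (DMSO, shEV or EV). Blue is lower and red higher; the UNC1999, shKdm5b and Kdm5b_WT columns are mostly blue, while Gnl3 is red in shKdm5b and in JQEZ5.

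A further 123 ribosome biogenesis genes, of which 122 were tested, were read from the same fits. By limma 61 (50.0%) were lower and 1 (0.82%) higher in UNC1999 than in DMSO, where 24% of all genes were lower and 23.9% higher. In shKdm5b 49 (40.2%) were lower and 2 (1.64%) higher than in shEV, against 17.4% and 15% of all genes. In Kdm5b_WT 54 (44.3%) were lower and 6 (4.92%) higher than in EV, against 32.4% and 29.8%. In JQEZ5 9 (7.38%) were higher and 1 (0.82%) lower than in DMSO, both shares below the 13.1% and 10.5% of all genes. In Kdm5b_H499A 31 (25.4%) were lower and 15 (12.3%) higher than in EV, the first near and the second below the 26.9% and 22.7% of all genes. The 1 higher gene in UNC1999 was Surf6, a nucleolar protein of ribosome assembly, at 1624 ± 89.8 normalised counts against 1310.1 ± 24.0 in DMSO (SD, n = 3, limma adjusted p = 3.19e-05). Surf6 was higher in shKdm5b as well, at 1.11 times shEV (limma adjusted p = 0.0419). Ruvbl2 and Ftsj3, an assembly ATPase of box C/D snoRNPs and a methyltransferase of pre-ribosomes, were lowest in adjusted p in UNC1999, at 0.733 and 0.765 times DMSO. In shKdm5b the lowest adjusted p was that of Rrn3, the factor that recruits RNA polymerase I to its promoter, at 1418 ± 57.7 against 2130.2 ± 3.44 normalised counts in shEV (log2 -0.50 ± 0.041 SE, limma adjusted p = 6.27e-05). Taf1b, another factor of that promoter complex, was higher in the same libraries, at 1.17 times shEV (limma adjusted p = 0.0149). In MLL-AF9 cells Ubtf, the upstream binding factor of ribosomal DNA, was at 0.827 times EV in Kdm5b_H499A (limma adjusted p = 2.87e-09). Taf1c, also a factor of the promoter complex, was at 1.37 times EV in Kdm5b_WT (limma adjusted p = 1.64e-05).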

How the data were processed

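RNA from 21 libraries was sequenced. Per the submitters' processing notes, the tools were STAR 2.4.2, Salmon 0.1.19 and DESeq2 1.38.2 and the builds mm10 and GRCm38.p4. The deposited values are variance-stabilised log2 expression made by the authors, in 3 tables normalised separately. Undoing the transformation with the lowest value of each table gave normalised counts that were whole multiples of 1 step in 100% of values under 1000 (tolerance 0.05), and so the read totals, 12812646 to 34813867 per library. All 38 symbols were matched, passed the filter in every table, and 0 columns were left unused. Linear models with a mean for each group came from limma 3.58.1 (R 4.3.3), with eBayes and its trend option. Genes had to lie 1 log2 unit or more over the table's lowest value in a number of libraries equal to the smallest group, which left 10694, 10810 and 9458, and p-values were adjusted over these by Benjamini-Hochberg. The fit was tested on simulated data. Calls are at an adjusted p under 0.05 and intervals are 95%. Levels and ratios are in normalised counts, tests and log2 differences on the deposited scale, which understates changes of low genes. The members and lists were chosen with earlier results of these data known. Named in each comparison are the 4 called genes with the lowest adjusted p in each direction whose groups did not overlap, plus Ncl, Npm1, Fbl, Polr1a, Bop1 and Cad; of the 123 further genes, at most 2 in each direction; and Myc and Kdm5b. Other names were chosen after their values were seen. Coding lengths and overlaps came from GENCODE M21. Alternatives were other filters (none, 2 log2 units), median centring, quantile normalisation, log2 of the normalised count or the CPM plus 1, voom on recovered counts, eBayes without trend or robust, a block for the replicate number, a fit of the compared groups alone, and leaving out each library.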

Additional observations from a re-analysis of the deposited data

Results flagged for a closer look

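Genes were flagged where limma called opposite directions against a shared control and also called the direct comparison. The direct call was thus a condition of the list and not a further result. By this rule 6 of the 38 genes were lower in UNC1999 and higher in JQEZ5 than in the DMSO libraries they share. The log2 difference of UNC1999 against JQEZ5 was -0.46 for Ncl, -0.40 for Nop58, -0.35 for Gnl3, -0.34 for Wdr43, -0.31 for Npm1 and -0.31 for Nhp2. The calls against DMSO of Nhp2, Nop58 and Wdr43 in JQEZ5 and of Gnl3 in UNC1999 were lost when certain single libraries were left out. Bop1 moved in opposite directions in Kdm5b_WT and Kdm5b_H499A from the EV libraries they share, with a log2 difference of -0.31 between them, also called by limma. Of all genes 24% were lower in UNC1999, 13.1% higher in JQEZ5, 32.4% lower in Kdm5b_WT and 22.7% higher in Kdm5b_H499A. How many of all genes moved in opposite directions was not counted.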

How the results depend on the processing

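The direction of the median over the 38 genes held in each comparison when any 1 library was left out. Leaving out 1 library gave 30 to 35 called genes for UNC1999 against DMSO, where 40.8% to 47.5% of all genes were called. It gave 32 to 35 for UNC1999 against JQEZ5 (29.3% to 35.8% of all genes) and 3 to 6 for JQEZ5 against DMSO (17.1% to 20.4%). For shKdm5b against shEV it gave 14 to 34 (17.6% to 51.4%). In MLL-AF9 cells the median log2 difference was then -0.1642 to -0.1301 for Kdm5b_WT against EV. It was -0.0349 to -0.0295 for Kdm5b_H499A against EV and -0.1139 to -0.1023 for Kdm5b_WT against Kdm5b_H499A. The JQEZ5 count of 7 was 3 with eBayes without trend, where 21.4% of all genes were called. Without 1 library an arm can hold a single library, which is then assumed to vary like the others. Among the 8 values that changed sign, 1 had been called, Ddx21 for Kdm5b_WT against EV, which was at 0.0109 under quantile normalisation. The other 7 were differences near 0, whose log2 range when 1 library was left out is given here. For JQEZ5 against DMSO it was -0.1261 to 0.077 for Fbl (above 0 without DMSO replicate 1 or JQEZ5 replicate 2) and -0.071 to 0.0085 for Nop2 (above 0 without JQEZ5 replicate 2). For Kdm5b_WT against EV it was -0.0049 to 0.0401 for Nop2 (below 0 without EV replicate 1 or Kdm5b_WT replicate 2). For Polr1a it was -0.0561 to 0.0079 for Kdm5b_H499A against EV (above 0 without EV replicate 2) and -0.0587 to 0.009 for Kdm5b_WT against Kdm5b_H499A (above 0 without Kdm5b_WT replicate 2). The causes were not tested. With median centring or quantile normalisation the knockdown gave 19 lower and 1 higher, Gnl3. Of all genes 15.4% or 15.7% were then lower and 16.7% or 16.2% higher. The JQEZ5 comparison gave 6 higher and 1 lower, Cad, where 11.4% or 11.1% of all genes were higher and 12.4% lower. The replicate numbers did not pair the libraries (same-number correlations of -0.15 to 0.223). With the number as a replicate block the called genes were 35 for UNC1999 against DMSO (47% of all genes) and 7 for JQEZ5 against DMSO (22.3%). They were 35 for UNC1999 against JQEZ5 (35.3%) and 23 for shKdm5b against shEV (32.3%). In MLL-AF9 cells they were 29 for Kdm5b_WT against EV (63%) and 17 for Kdm5b_H499A against EV (50.4%). For Kdm5b_WT against Kdm5b_H499A the count was 30 (55.4%). The alternative values comprise single genes, and also counts of called genes and medians, which have no call of their own. Of these values 3239 were labelled the same, where a count or median that changed little also has that label. Among single genes 214 values lost a call, 13 gained 1 and 8 changed sign, and 32 counts or medians moved.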
